A study of Mus musculus with 8 samples.

Results

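Urea cycle and amino acid breakdown genes were followed in male mouse liver as a list of 35 genes, chosen by symbol and by the known function of their enzymes, out of 19935 genes measured. Of the 35, 31 had a probe set that named that gene alone. Ass1, the argininosuccinate synthase of the urea cycle, was covered only by probe sets that also name the pseudogene Gm5424, and it was not analysed here. Gls2, Sds and Sdsl were not analysed here either, so the dehydration of serine and threonine has no measured member. Each gene was read from its probe set of highest mean level. The 35 genes and the further lists below were chosen with earlier results of these data known. Their shares set beside those of all genes are thus a description and not a test of a list.

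The comparison was between 4 NS-DADm and 4 wild-type (WT) livers of C57Bl/6 males aged 10 to 12 weeks, fed normal chow under equal periods of light and dark and sampled at zeitgeber time 10, in the late light phase. In NS-DADm mice the nuclear receptor corepressors NCOR and SMRT carry mutations in the deacetylase-activating domain, the stretch through which each of them switches on the histone deacetylase HDAC3. The labels name no Cre driver, transgene or zygosity and do not say that each array is a separate animal, so the p-values rest on a spread between arrays that may be only technical. Each RNA was read on its own Affymetrix Mouse Gene 1.0 ST array, and all levels below are log2 intensities.

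Liver is the main site at which amino acid nitrogen is turned into urea. Transaminases and dehydrogenases move nitrogen to glutamate, ammonia and aspartate, the urea cycle joins it into urea, and dedicated enzyme chains burn the carbon skeletons. A further branch hands the methyl group of methionine to other molecules and turns the remaining homocysteine either back into methionine or into cysteine. Many of these genes are regulated by hormones and feeding through nuclear receptors and forkhead factors, and the urea cycle is strongest in hepatocytes near the portal vein.

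Most of the amino acid genes differed little between NS-DADm and WT livers. Of the 31 measured members 1, Prodh2, fell at an adjusted p under 0.05 and none rose, where over all genes tested 0.271% passed, 0.161% as higher and 0.11% as lower. The log2 differences of the members, NS-DADm minus WT, had a median of 0.01, against -0.01 over all genes, with 17 above 0 and 14 below. The median size of the difference, regardless of sign, was 0.08 in the members and 0.05 over all genes. In 19 members the difference was smaller than 0.1, and in 30 it was smaller than 0.25. For 30 of the 31 the 95% confidence interval of the difference lay within 1.5-fold in either direction, the exception being Prodh2, and the same was true of 97.2% of all genes. The SE of a member's difference ran from 0.0472 to 0.168, with a median of 0.0673, against 0.0703 over all genes. Groups did not overlap for 3 members higher in NS-DADm livers (Cbs, Mat1a and Bckdhb) and 3 lower (Prodh2, Tat and Sardh), where 5.63% of all genes were apart, 1.8% upwards and 3.83% downwards. After quantile normalization 14 of the 31 were above 0. An unadjusted limma p under 0.05 was reached by 6 members, where 9.33% of all genes reached it.

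**Figure D1:**
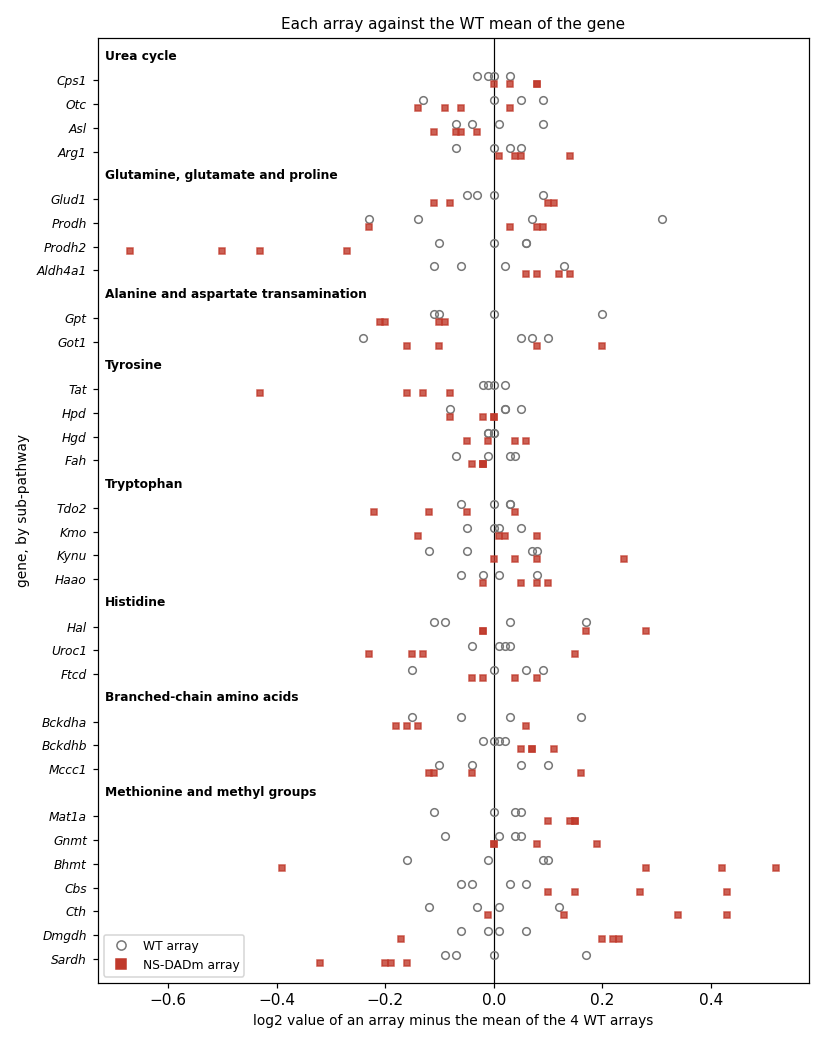
Log2 value of each array minus the mean of the 4 WT arrays (horizontal axis) for the 31 measured members (vertical axis, by sub-pathway); open circles are WT arrays and filled squares NS-DADm arrays. Most genes have interleaved circles and squares, while the 4 squares of Prodh2 lie to the left of all its circles and those of Cbs and Mat1a to the right.

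Prodh2 (Entrez Gene 56189) encodes hydroxyproline dehydrogenase, the mitochondrial enzyme that starts the breakdown of the hydroxyproline released from collagen. Its level was 10.76, 10.76, 10.70 and 10.60 in WT replicates 1 to 4 and 10.03, 10.20, 10.27 and 10.43 in NS-DADm replicates 1 to 4. Every NS-DADm array was below every WT array, with NS-DADm replicate 4 the nearest to the WT range. The mean went from 10.70 ± 0.07 to 10.23 ± 0.16 (SD, n = 4 each), 1.39-fold lower (log2 difference -0.47, SE 0.0809, 95% confidence interval -0.65 to -0.29, adjusted p = 0.0493). The call sat at the threshold. It was lost without any 1 of 7 arrays (adjusted p = 0.0569 to 0.201), with every probe set tested (0.0734), after quantile normalization (0.0657), after subtraction of array medians (0.0505) and with a replicate block (0.0739). It held without NS-DADm replicate 4 (log2 difference -0.54, adjusted p = 0.014), and the difference stayed between -0.54 and -0.40 whichever array was left out.

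**Figure D2:**
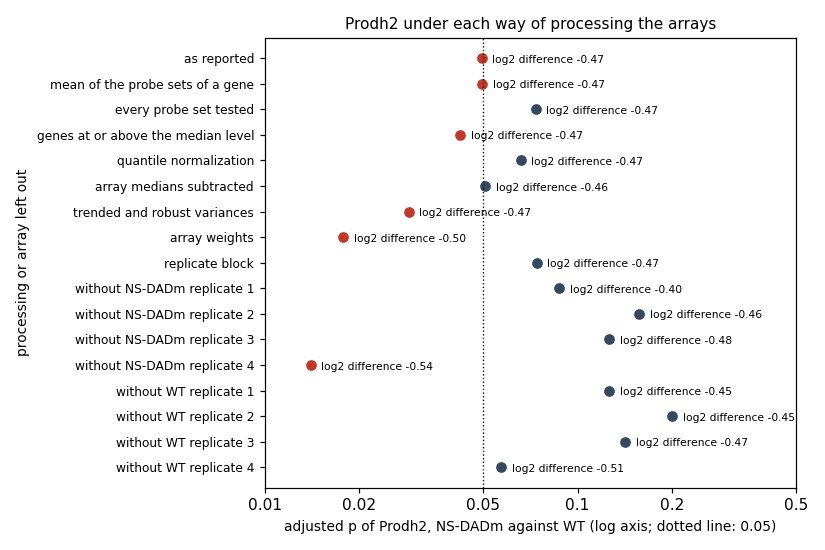
Adjusted p of Prodh2 (horizontal log axis, dotted line at 0.05) as reported and under 16 other ways of processing or leaving out an array (vertical axis), with the log2 difference written beside each point; red points are under 0.05. The points lie between 0.014 and 0.201 while the differences lie between -0.54 and -0.40.

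Prodh, the closest relative of Prodh2, encodes proline dehydrogenase, which carries out the matching step for proline. Its level was 11.44, 11.20, 10.99 and 10.90 in the WT arrays and 11.22, 11.16, 11.21 and 10.90 in the NS-DADm arrays, so the groups overlapped, with WT replicate 1 above all NS-DADm arrays. The log2 difference was -0.01, with an interval of -0.27 to 0.24 (adjusted p = 0.995). The stretch upstream of each gene is shown, 250 bases that end at the base before the RefSeq start (assembly GRCm38.p6, written 5′ to 3′ on the strand of the gene). Prodh2 lies on the plus strand at chr7:30493408-30493657 and Prodh on the minus strand at chr16:18089191-18089440. Capitals mark a match, on either strand, to AGGTCA, the core element bound by many nuclear receptors, or to TGTTTAC, a forkhead element; these motifs do not overlap in the windows shown.
Prodh2: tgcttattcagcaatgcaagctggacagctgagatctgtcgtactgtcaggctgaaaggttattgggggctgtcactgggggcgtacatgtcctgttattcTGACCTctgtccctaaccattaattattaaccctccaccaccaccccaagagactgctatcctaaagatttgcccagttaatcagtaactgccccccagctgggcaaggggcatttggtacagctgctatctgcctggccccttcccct
Prodh: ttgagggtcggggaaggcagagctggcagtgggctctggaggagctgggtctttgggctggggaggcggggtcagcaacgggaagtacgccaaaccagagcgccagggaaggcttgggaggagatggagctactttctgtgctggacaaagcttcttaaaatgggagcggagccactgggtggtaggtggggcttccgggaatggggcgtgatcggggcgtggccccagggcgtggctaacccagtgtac
The Prodh2 window holds 1 match, the AGGTCA element read on the minus strand, at 149 to 144 bases before the start. The Prodh window holds neither motif. The Prodh2 window is 51.6% G and C and the Prodh window 63.2%, with a median of 52.4% over all promoters. The 24 measured members that have a RefSeq promoter entry have 25 promoters. AGGTCA was found in 10 of these windows and in 14% of 32851 promoters of the same length. The 10 belong to Bckdhb, Bhmt, Gnmt, Got1, Haao, Hgd, Prodh2, Sardh, Tdo2 and Uroc1. TGTTTAC was found in 0 of the 25 and in 3.17% of all promoters. The set of all promoters was not limited to genes expressed in liver. Members with AGGTCA included genes with differences on both sides of 0 and genes near 0. A match is a string of letters, not a measured binding site, and a link between matches and differences was not tested.

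The 4 measured urea cycle genes were close to their WT levels. Cps1, which captures ammonia as carbamoyl phosphate, was at 13.58, 13.55, 13.52 and 13.54 in WT arrays and at 13.63, 13.58, 13.63 and 13.55 in NS-DADm arrays. The log2 difference was 0.05 (interval -0.06 to 0.16, adjusted p = 0.887), and the groups overlapped. Otc, which makes citrulline from carbamoyl phosphate and ornithine, ran from 12.32 to 12.54 in WT and from 12.31 to 12.48 in NS-DADm arrays (difference -0.07, interval -0.21 to 0.07). Asl, which splits argininosuccinate into arginine and fumarate, ran from 12.05 to 12.21 and from 12.01 to 12.09 (-0.06, interval -0.18 to 0.06). Arg1, which releases urea from arginine, ran from 12.49 to 12.61 and from 12.57 to 12.70 (0.06, interval -0.06 to 0.18). None of the 4 intervals reached beyond -0.21 or 0.18.

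The genes that pass nitrogen through glutamate and by transamination had no member past the test other than Prodh2. Glud1, the glutamate dehydrogenase that frees ammonia, ran from 12.37 to 12.51 in WT and from 12.31 to 12.53 in NS-DADm arrays. Aldh4a1, which acts after both dehydrogenases on the products of proline and hydroxyproline, had means of 11.20 ± 0.10 in the WT and 11.30 ± 0.04 in the NS-DADm group (SD, n = 4 each; difference 0.10, interval -0.03 to 0.24, adjusted p = 0.68). The value of Aldh4a1 was thus above 0 where that of Prodh2, upstream of it in hydroxyproline breakdown, was below. Gpt, the alanine transaminase, was at 10.70, 10.50, 10.39 and 10.40 in WT and at 10.29, 10.30, 10.41 and 10.40 in NS-DADm arrays (difference -0.14, interval -0.31 to 0.02, adjusted p = 0.603), or -0.08 without WT replicate 1. Got1, the cytosolic aspartate transaminase, ran from 12.56 to 12.90 and from 12.64 to 13.00, with a difference of 0.01.

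Among the aromatic amino acid genes the tyrosine transaminase Tat, which opens tyrosine breakdown and is a long-studied glucocorticoid target, had the largest value. It was at 13.81, 13.84, 13.82 and 13.80 in WT and at 13.39, 13.69, 13.66 and 13.74 in NS-DADm arrays. The groups did not overlap, and NS-DADm replicate 1 was the lowest by a wide margin. The log2 difference was -0.20 (SE 0.0751, interval -0.36 to -0.03), short of the threshold (adjusted p = 0.427). Leaving out NS-DADm replicate 1 gave -0.12. The later steps of the chain were flat, with differences of -0.03 for the dioxygenase gene Hpd, 0.01 for Hgd, the homogentisate oxidase, and -0.02 for Fah, which releases fumarate and acetoacetate. The intervals of these 3 genes reached no further than -0.15 and 0.12. In the tryptophan chain Tdo2, whose product opens the indole ring, had a difference of -0.08 (interval -0.22 to 0.06), and the kynurenine hydroxylase gene Kmo one of -0.01. Kynu, which cleaves kynurenines, was at 0.10 and Haao, the next oxidase on the way to NAD, at 0.05, with adjusted p from 0.782 to 0.993 over these 4 genes. Tat alone of the 8 aromatic members had groups that did not overlap.

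Histidine and branched-chain amino acid genes also had no member past the test. Hal, which removes ammonia from histidine, ran from 12.09 to 12.37 in WT and from 12.18 to 12.48 in NS-DADm arrays (difference 0.10). Uroc1, which acts next on urocanate, was at 11.13, 11.11, 11.06 and 11.12 in WT and at 10.87, 10.97, 10.95 and 11.25 in NS-DADm arrays. NS-DADm replicates 1 to 3 were thus below all WT arrays and replicate 4 above them, with a difference of -0.10 (interval -0.27 to 0.08), or -0.17 without replicate 4 and -0.05 without replicate 1. Ftcd, which passes the last fragment of histidine to folate, had a difference of 0.02. Bckdhb and Bckdha encode the paired subunits of the enzyme that commits branched-chain keto acids to oxidation. Bckdhb was at 11.27, 11.29, 11.28 and 11.25 in WT and at 11.34, 11.34, 11.38 and 11.32 in NS-DADm arrays, so the groups were apart by a small step (difference 0.08, SE 0.0472, adjusted p = 0.707). Bckdha had a value of the opposite sign, -0.10 (interval -0.28 to 0.07, adjusted p = 0.809), or -0.05 without WT replicate 1 and -0.16 without NS-DADm replicate 4. Mccc1, a subunit of the leucine pathway carboxylase, was at -0.03.

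**Figure D3:**
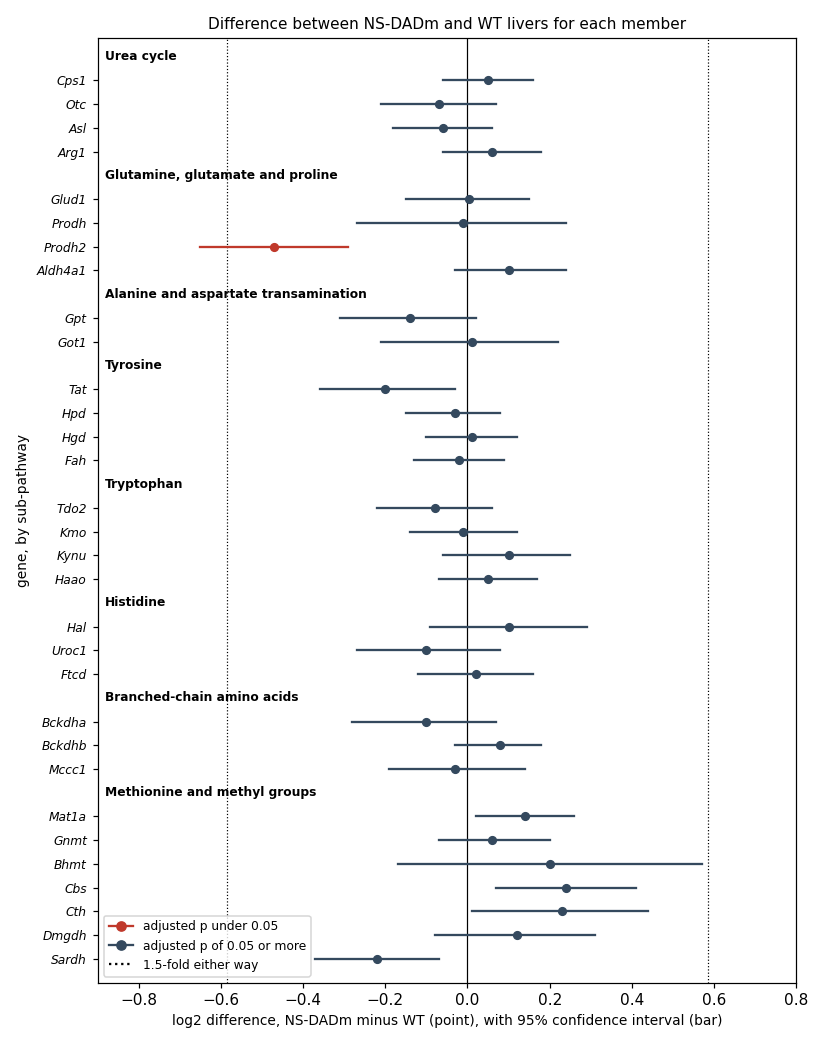
Log2 difference, NS-DADm minus WT (points), with its 95% confidence interval (bars) for the 31 measured members by sub-pathway; dotted lines mark 1.5-fold in either direction and red marks an adjusted p under 0.05. The bar of Prodh2 crosses the left dotted line, the bars of the other 30 members stay between the dotted lines, and 6 of the 7 points of the methionine group lie right of 0.

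The methionine and methyl-group genes had the highest sub-pathway median, 0.14, against medians from -0.07 to 0.02 in the other 7 measured sub-pathways. Of its 7 members 6 had values above 0 and 1 below, where 44.3% of all genes were above 0, and none passed the test. The 6 were above 0 and Sardh below it under all 16 alternatives. An unadjusted limma p under 0.05 was reached by Mat1a, Cbs, Cth and Sardh, with adjusted p from 0.313 to 0.491, and the intervals of all 7 lay within 1.5-fold. The median moved to 0.10 without NS-DADm replicate 3 and to 0.18 without NS-DADm replicate 4. Outside the member list, 12 further methionine, cysteine and methyl-group genes had a median of 0.06, with 11 above 0 and 1 below. That was close to the median of 0.05 over all 61 measured further genes of amino acid metabolism. The further glycine and serine genes had a median of 0.09.

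Cbs and Cth encode the enzymes that turn homocysteine into cystathionine and then cysteine. Cbs was at 12.12, 12.10, 12.22 and 12.19 in WT and at 12.26, 12.31, 12.43 and 12.59 in NS-DADm arrays, so the groups did not overlap. Its log2 difference was 0.24 (SE 0.075, interval 0.07 to 0.41, adjusted p = 0.313). Cth was at 12.53, 12.38, 12.29 and 12.42 in WT and at 12.54, 12.40, 12.84 and 12.75 in NS-DADm arrays. Here NS-DADm replicates 3 and 4 were clearly above all WT arrays, replicate 1 was just above the highest of them and replicate 2 was within the WT range (difference 0.23, interval 0.01 to 0.44, adjusted p = 0.491). Mat1a, which makes the methyl donor S-adenosylmethionine, was at 13.34, 13.38, 13.39 and 13.23 in WT and at 13.48, 13.49, 13.44 and 13.49 in NS-DADm arrays, apart by a narrow gap (difference 0.14, SE 0.0542, adjusted p = 0.439). Gnmt, which spends that donor by methylating glycine to sarcosine, had a difference of 0.06 (interval -0.07 to 0.20).

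Sardh, the mitochondrial sarcosine dehydrogenase that recovers glycine from sarcosine, had a value of the opposite sign from the rest of the group. It was at 12.53, 12.29, 12.36 and 12.27 in WT and at 12.04, 12.16, 12.17 and 12.20 in NS-DADm arrays. All NS-DADm arrays were below all WT arrays (log2 difference -0.22, SE 0.0691, interval -0.37 to -0.07), with an adjusted p of 0.313. Without WT replicate 1, the highest, it was -0.16.

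**Figure D4:**
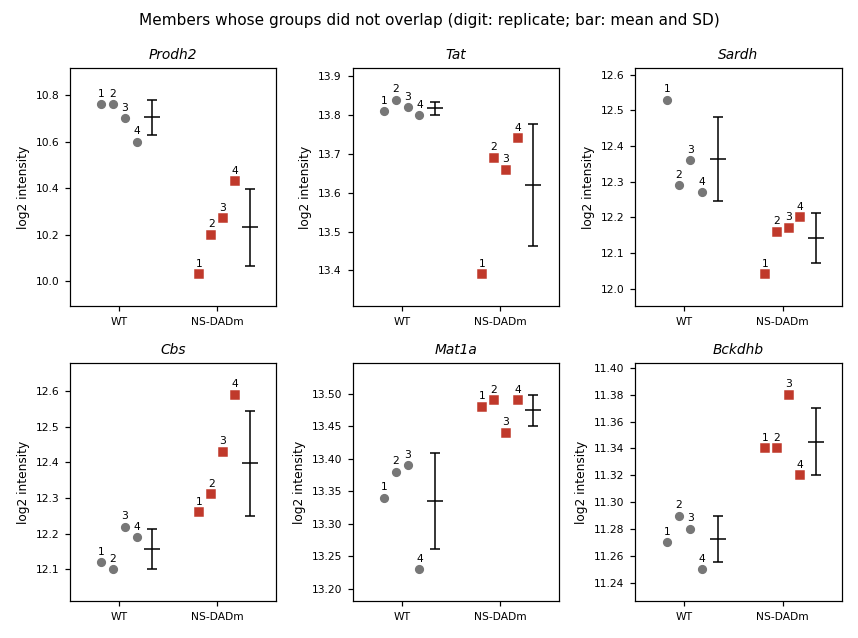
Log2 intensity of each array (points, with the replicate number) for the 6 members whose groups did not overlap, WT in grey and NS-DADm in red, with the group mean and SD as black bars; the vertical axes differ and do not start at 0. Of these genes Prodh2, with means of 10.70 and 10.23, passed the test over all genes and the other 5 did not.

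Bhmt and Dmgdh are genomic neighbours with Bhmt2 between them, in the order of the RefSeq gene table. Bhmt uses betaine to return homocysteine to methionine and leaves dimethylglycine, which Dmgdh turns into sarcosine. Bhmt was at 12.94, 13.04, 13.05 and 12.79 in WT and at 13.37, 13.23, 13.47 and 12.56 in NS-DADm arrays. NS-DADm replicates 1 to 3 were above every WT array and replicate 4 below every one of them, which gave the widest interval of the list (difference 0.20, interval -0.17 to 0.57, adjusted p = 0.823). Dmgdh showed the same arrangement, with 12.27, 12.22, 12.20 and 12.15 in WT and 12.43, 12.41, 12.44 and 12.04 in NS-DADm arrays (difference 0.12, adjusted p = 0.793). Without NS-DADm replicate 4 the differences were 0.40 for Bhmt (adjusted p = 0.0723) and 0.22 for Dmgdh (0.142), and without NS-DADm replicate 3 they were 0.10 and 0.08. Leaving out replicate 4, the array below WT, had to raise both differences. It also took the count called over all genes from 54 to 126. Bhmt2, which remethylates homocysteine from another donor, ran from 11.80 to 12.04 in WT and from 11.83 to 12.13 in NS-DADm arrays, with a difference of 0.05, and NS-DADm replicate 4 was the lowest of its group. Bhmt was read by 3 probe sets, of which the next brightest gave a difference of 0.19 and the dimmest one of 0.03, so the sets did not give the same size. The share of signal from close copies in these sets was not tested.

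**Figure D5:**
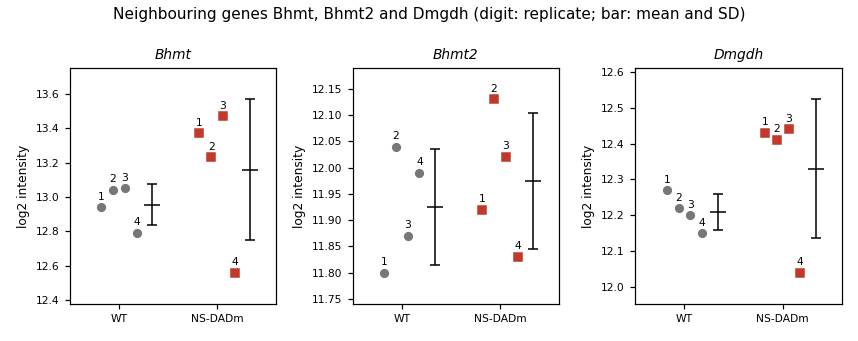
Log2 intensity of each array (points, with the replicate number) for the neighbouring genes Bhmt, Bhmt2 and Dmgdh, WT in grey and NS-DADm in red, with group mean and SD as black bars; the vertical axes differ and do not start at 0. NS-DADm replicate 4 lies at 12.56 for Bhmt and 12.04 for Dmgdh, below all WT arrays, while the other 3 NS-DADm arrays lie above them.

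Single arrays also stood out across the list. NS-DADm replicate 3 was the highest of the 8 arrays for 11 of the 31 members, and it was the highest for 7.26% of all genes. NS-DADm replicate 1 was the lowest for 7 members, among them Prodh2, Tat and Sardh, and for 13.6% of all genes. Members spread more among NS-DADm arrays, with a median SD of 0.0945, than among WT arrays, at 0.0704, whereas over all genes these medians were 0.0797 and 0.105. These spreads are a description and were not tested.

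Of 68 further genes of urea and amino acid metabolism 61 were measured, and limma called none of them, where 0.271% of all genes were called. An unadjusted p under 0.05 was reached by 7, where 9.33% of all genes reached it, and 44 of the 61 were above 0, where 44.3% of all genes were, with a median of 0.05. That count was 37 without NS-DADm replicate 4. The largest value was that of Oat, the ornithine aminotransferase, which takes ornithine out of the urea cycle toward glutamate and proline and is expressed in hepatocytes next to the central vein. Oat was at 12.91, 12.74, 12.79 and 12.57 in WT and at 13.33, 13.17, 13.33 and 13.00 in NS-DADm arrays, all NS-DADm arrays being above all WT arrays. The log2 difference was 0.45 (SE 0.0903, interval 0.25 to 0.65, adjusted p = 0.0902). It passed the test without NS-DADm replicate 4 (0.52, adjusted p = 0.0254), with array weights (adjusted p = 0.0393) and with a replicate block (0.0177). In those fits 126, 109 and 105 genes were called over all genes, against 54 as reported. Under every other alternative Oat missed the threshold (adjusted p = 0.0531 to 0.263). Nnmt, which spends S-adenosylmethionine on nicotinamide, ran from 11.55 to 11.83 in WT and from 11.79 to 12.24 in NS-DADm arrays (difference 0.27, adjusted p = 0.399), or 0.18 without NS-DADm replicate 4.

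Among 12 measured regulators of amino acid genes 4 had values above 0 and 8 below, where 44.3% of all genes were above 0, and the median was -0.08. Groups did not overlap for 4 of them, all lower, where 3.83% of all genes were apart downwards. An unadjusted limma p under 0.05 was reached by 4, where 9.33% of all genes reached it. These 4 were Foxo1 and Klf15, given below, Ppara at -0.22 (adjusted p = 0.238) and Crtc2 at -0.20 (adjusted p = 0.306). Of the 12, 1 fell, where 0.11% of all genes were called lower. The list was chosen with earlier results of these data known, so these shares are a description and not a test of the list. Foxo1, a forkhead factor of the fasting response, was at 10.51, 10.59, 10.46 and 10.39 in WT and at 9.89, 10.10, 9.95 and 10.14 in NS-DADm arrays. The groups were apart, with a log2 difference of -0.47 (SE 0.071, interval -0.63 to -0.31, adjusted p = 0.0256). The call was lost when replicate 1, 2 or 3 of either group was left out (adjusted p = 0.0585 to 0.127). Klf15, a factor that switches on amino acid breakdown in fasting and was named here after its values were seen, was at 11.51, 11.30, 11.32 and 11.20 in WT and at 10.39, 10.93, 10.99 and 11.16 in NS-DADm arrays. Its difference of -0.47 missed the threshold (adjusted p = 0.292), and it came to -0.31 when NS-DADm replicate 1 was left out. That array was the lowest for Klf15 and for 13.6% of all genes.

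The samples carried the markers of liver. Albumin (Alb) ran from 13.92 to 13.99 over the 8 arrays, and the 6 measured hepatocyte markers had a median difference of 0.02. All 9 sinusoidal endothelial markers were below 0, with a median of -0.26 and none called. Their summed level (log2 of the sum of intensities) was 12.77 to 12.98 in WT and 12.32 to 12.88 in NS-DADm arrays. An unadjusted limma p under 0.05 was reached by 6 of these 9, where 9.33% of all genes reached it. In the other marker lists 0 to 2 genes reached it. For 2 of the 9 the groups were apart downwards, where 3.83% of all genes were. All 7 stellate cell markers were below 0 (median -0.05, summed level 12.63 to 12.93 and 12.31 to 13.08), and 7 of 8 Kupffer cell markers were above 0 (median 0.07, 11.83 to 12.55 and 11.71 to 12.87). The 7 lymphocyte and neutrophil markers were all above 0 (median 0.18, 9.07 to 9.37 and 9.29 to 9.61), and the 5 cholangiocyte markers had a median of 0.01. Pericentral hepatocyte markers, with Oat among them, were below 0 in 7 of 10 (median -0.12, 15.41 to 15.57 and 15.33 to 15.63), and periportal markers other than members in 4 of 5 (median -0.23, 15.03 to 15.22 and 14.77 to 15.11). No member of any of these lists passed the test. Medians of the pancreatic and kidney markers were -0.01 and -0.03. In bulk liver, fewer cells of a type and less RNA per cell cannot be told apart, and the part of these markers in the values above was not tested.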

How the data were processed

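The values were a table deposited by the authors as log2 intensities of 28270 probe sets on 8 arrays; the scale was read from the values, 3.43 to 14.37. RMA and Partek are named in the submitters' processing notes, with no version or setting given in the sources used here. Array medians ran from 7.39 to 7.50, and pairs of arrays correlated at 0.993 to 0.998 within NS-DADm, 0.993 to 0.997 within WT and 0.993 to 0.997 between groups. No detection call, saturation flag or batch was given, so compression of bright or dim signals could not be judged.

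Probe sets were named from GEO's platform annotation, with symbols updated by Entrez Gene identifier from RefSeq (GRCm38.p6): 21780 named 1 gene, 1617 several and 4873 none. Each of 19935 genes, of which 19852 matched by identifier, took its single-gene probe set of highest mean. The comparison used limma (version 3.58.1, R version 4.3.3; lmFit, eBayes, two-sided, Benjamini-Hochberg over all genes, threshold 0.05), with no filter; all 31 measured members lay at or above the median of gene means. Alternatives changed the probe set rule, the filter, the normalization, the variance model, array weights, a replicate block and each array in turn. Promoters were matched by symbol. The fit was tested on simulated data with independent noise for each gene and array, which does not cover effects shared by the genes of an array. Members and lists were chosen with earlier results of these data known. The text names all members, and of other lists up to 4 called genes per direction or else the 2 largest. Bhmt2 and Klf15 were added after seeing their values. Ppara, Crtc2 and Alb were also named outside that naming rule. The number of arrays limits the precision. Tables and figures used Python 3.11.15, pandas 2.3.3 and matplotlib 3.10.9.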

Additional observations from a re-analysis of the deposited data

Results flagged for a closer look

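In 72 groups of 4 arrays, 1 for each named gene and genotype, 5 held an array flagged as apart from the other 3. Chance flags about 1 group in 20. A flag does not measure the size of the gap in log2 units. The gap for Fah was small, while NS-DADm replicate 4 for Bhmt, at 12.56 against 13.23 to 13.47, was not flagged. NS-DADm replicate 4 was the lowest of its group for Prodh, at 10.90 against 11.16 to 11.22, and for Dmgdh, at 12.04 against 12.41 to 12.44. The same array was the highest for Bckdha, at 11.10 against 10.86 to 10.90. NS-DADm replicate 3 was the lowest for Fah, at 13.00 where the others were all at 13.02. WT replicate 4 was the lowest for Got1, at 12.56 against 12.85 to 12.90.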

How the results depend on the processing

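No member other than Prodh2 passed the threshold under any of the 16 alternatives. The count of members called, as of those called lower, was 0 with every probe set tested, after quantile normalization, after subtraction of array medians and with a replicate block, and 0 to 1 with each array left out; none was called higher under any alternative. The count over all genes was 54 as reported, 109 with array weights, 105 with a replicate block and 13 to 126 with each array left out, the extremes being without WT replicate 2 and without NS-DADm replicate 4; it was also 31 and 35 without NS-DADm replicates 2 and 3 and 22 without WT replicate 3. The count of wider pathway genes called was 1, Oat, with array weights or a replicate block and 0 to 1 with each array left out. The replicate block pairs arrays by number only: deviations from the group mean of same-numbered arrays correlated at 0.15, 0.05, -0.10 and 0.25, and not every array correlated best with its own number.

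Values of 8 genes changed sign, none more than 0.05 from 0 as reported. After quantile normalization Glud1 was at -0.02, Got1 at -0.0013 and Hgd at -0.02. With array weights Prodh was at 0.02, Got1 at -0.07, Kmo at 0.02 and Mccc1 at 0.0013. With each array left out Glud1 ran from -0.03 to 0.04, Prodh from -0.09 to 0.09, Got1 from -0.07 to 0.06, Kmo from -0.04 to 0.03, Hgd from -0.01 to 0.03, Ftcd from -0.03 to 0.05, Mccc1 from -0.09 to 0.004 and Bhmt2 from -0.00037 to 0.10. The cause was not tested. Signal over background could not be judged without detection calls.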
